A study of Mus musculus with 146 samples.

Results

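The 9 genes described here belong to bone morphogenetic protein (BMP) and transforming growth factor beta (TGF-beta) signalling, and were measured in bone marrow-derived macrophages of outbred mice: the type I receptors Bmpr1a, Acvr1 and Tgfbr1, the type II receptors Bmpr2, Acvr2a and Tgfbr2, the intracellular SMAD proteins Smad3 and Smad7, and the ligand Gdf3. They were taken from a list of names and not picked by their measured values, although earlier results of these data were known when they were chosen. They are 9 of the 22721 genes in the deposited count table. All 9 were also in the deposited table of variance-stabilised values, which holds 10893 genes.

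The 146 libraries came from 1 CFW mouse each (strain Crl:CFW(SW)-US_P08), aged 16 weeks, 86 labelled female and 60 labelled male. Marrow cells were grown for 5 days in medium with L929-conditioned medium, which supplies macrophage growth factor, and were not treated further. The libraries, poly-A selected and read as 100 bp pairs, were spread over 7 plates, with 6 libraries on plate 1 and 22 to 24 on each other plate, and over 28 labels of collection date, which are written in more than one format and are used here as names only. Plate is the batch used here. The labels also give a lane for each library, which entered only an alternative model. CFW mice are outbred, so that each mouse differs genetically from the others, and the study set the expression data beside wound healing and genotype, neither of which was analysed here.

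Ligands of this family bind a type II receptor, which phosphorylates a type I receptor, and the type I receptor then phosphorylates SMAD proteins that enter the nucleus and act on transcription. TGF-beta signals through Tgfbr2 and Tgfbr1 to Smad2 and Smad3, whereas BMPs signal through Bmpr2 or activin type II receptors with Bmpr1a or Acvr1 to Smad1 and Smad5, and Smad7 restrains both arms and Smad6 chiefly the BMP arm. In macrophages TGF-beta is known for restraining inflammatory responses and for its part in tissue repair.

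Depth ranged from 14483441 to 120926429 counts per library, with a median of 43815187, and 12060 genes passed the filter on low counts. In 6 libraries the summed counts of 4 Y-linked genes went against the labelled sex: 4 labelled female (replicate 5 on plate 10 and replicates 82, 85 and 86 on plate 8) and 2 labelled male (replicates 57 and 59 on plate 8). They were kept under their labels, and results that depend on sex are given with and without them. The summed level of 8 macrophage markers lay between 11765 and 25419 CPM (CPM being counts scaled by library size, so that libraries of unlike depth compare) in every library, while 3 erythroid markers summed to at most 1.12 CPM. The 9 stromal markers summed to 4.19 to 84.2 CPM in libraries labelled female (median 12.2) and to 3.04 to 20.8 CPM in those labelled male (median 9.07). Of these Lum, at 0 in most libraries, Dcn and Pdgfra lay near 0 and Pdgfrb had the highest mean, 5.08 CPM without regard to length. The 10 granulocyte markers summed to 96.6 to 1732 CPM (median 383) and 75.5 to 1438 CPM (median 299) in the same order, with the neutrophil marker Ly6g at a mean of 0.0334 CPM. In such bulk RNA, fewer cells of a type and less RNA per cell cannot be told apart.

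Among the type I receptors, Tgfbr1, the TGF-beta type I receptor (ENSMUSG00000007613, chromosome 4, 47353222 to 47414931, plus strand, GRCm38), had the highest level, also per kilobase of exon, at 171 CPM in the lowest library, 320 in the median and 495 in the highest, with a mean of 323 ± 52.5 CPM (SD, n = 146). Acvr1, a BMP and activin type I receptor also known as ALK2 (ENSMUSG00000026836, chromosome 2, 58388644 to 58567157, minus strand), ran from 21.3 through a median of 29.0 to 37.1 CPM. Bmpr1a, the BMP type I receptor also known as ALK3 (ENSMUSG00000021796, chromosome 14, 34410734 to 34503341, minus strand), ran from 1.07 through a median of 4.19 to 16.1 CPM. The highest library thus held 1.74 times the lowest for Acvr1 but 15.04 times the lowest for Bmpr1a.

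Of the type II receptors, Tgfbr2, which binds TGF-beta itself (ENSMUSG00000032440, chromosome 9, 116084293 to 116175360, minus strand), was expressed at 154 CPM in the lowest library, 365 in the median and 452 in the highest. Its 5 lowest libraries were female 76 (154 CPM) and female 70 (174 CPM) on plate 7, and female 27 (159 CPM), male 15 (187 CPM) and female 24 (219.8 CPM) on plate 2. Bmpr2, the BMP type II receptor (ENSMUSG00000067336, chromosome 1, 59763400 to 59879014, plus strand), lay between 30.6 and 66.6 CPM with a median of 55.1. Its lowest 2 libraries, female 44 at 30.6 and female 35 at 33.9 CPM, were both on plate 3 and the next was at 42.9 CPM. Acvr2a, an activin and BMP type II receptor (ENSMUSG00000052155, chromosome 2, 48814109 to 48903269, plus strand), lay between 6.25 and 21.6 CPM with a median of 12.2. Its exons share 446 bp, 7.84% of their length, with Orc4 on the opposite strand, a gene of the DNA replication origin complex at a mean of 39.2 CPM. Whether counting used the strand is not given in the sources used here, so that reads from the shared stretch cannot be assigned with certainty.

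Inside the cell, Smad3, the SMAD that carries the TGF-beta signal (ENSMUSG00000032402, chromosome 9, 63646767 to 63757994, minus strand), ran from 6.11 through a median of 10.4 to 17.4 CPM. Smad7, an inhibitory SMAD that TGF-beta itself induces (ENSMUSG00000025880, chromosome 18), ran from 23.7 through 35.5 to 54.2 CPM. The ligand Gdf3, a nodal-like member of the BMP family (ENSMUSG00000030117, chromosome 6, 122605403 to 122610087, minus strand), had by far the widest range of the 9, from 0.0813 CPM (5 counts, female 86) through a median of 5.43 to 67.4 CPM (2655 counts, female 55). In 47 libraries Gdf3 lay under 0.5 times its median and in 32 over 2 times its median. For Bmpr1a these counts were 18 and 17 libraries, for Tgfbr2 3 and 0, and for each of the other 6 genes 0 and 0.

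Per kilobase of annotated exon the order of mean levels was Tgfbr1 (49.4 ± 8.03 CPM per kb, SD, n = 146), Tgfbr2 (42.97 ± 7.40), Smad7 (7.94 ± 1.24), Acvr1 (6.04 ± 0.554), Gdf3 (3.48 ± 4.50), Bmpr2 (3.04 ± 0.292), Acvr2a (2.19 ± 0.410), Smad3 (1.91 ± 0.384) and Bmpr1a (0.810 ± 0.492). Among neighbours in this order, Tgfbr1 and Tgfbr2, Acvr2a and Smad3, and Gdf3 with both Acvr1 and Bmpr2 lay within 1 SD of each other, the SD of Gdf3 being larger than its mean. The other neighbours were farther apart than the sum of their SDs. The spread over mice, as a coefficient of variation of the CPM, was 129% for Gdf3 and 60.8% for Bmpr1a, and 9.18% (Acvr1) to 20.1% (Smad3) for the other 7. Counting error at the mean level, its variance averaged over the depths of the libraries, would give 6.87% for Bmpr1a, 5.37% for Gdf3 and at most 4.79% for the rest. On the log2 scale the SD was 1.73 for Gdf3 and 0.83 for Bmpr1a, against a median of 0.21 over the 12060 genes tested, and 0.14 to 0.29 for the other 7. Gdf3 and Bmpr1a thus differed between mice far more than the other 7.

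**Figure D1:**
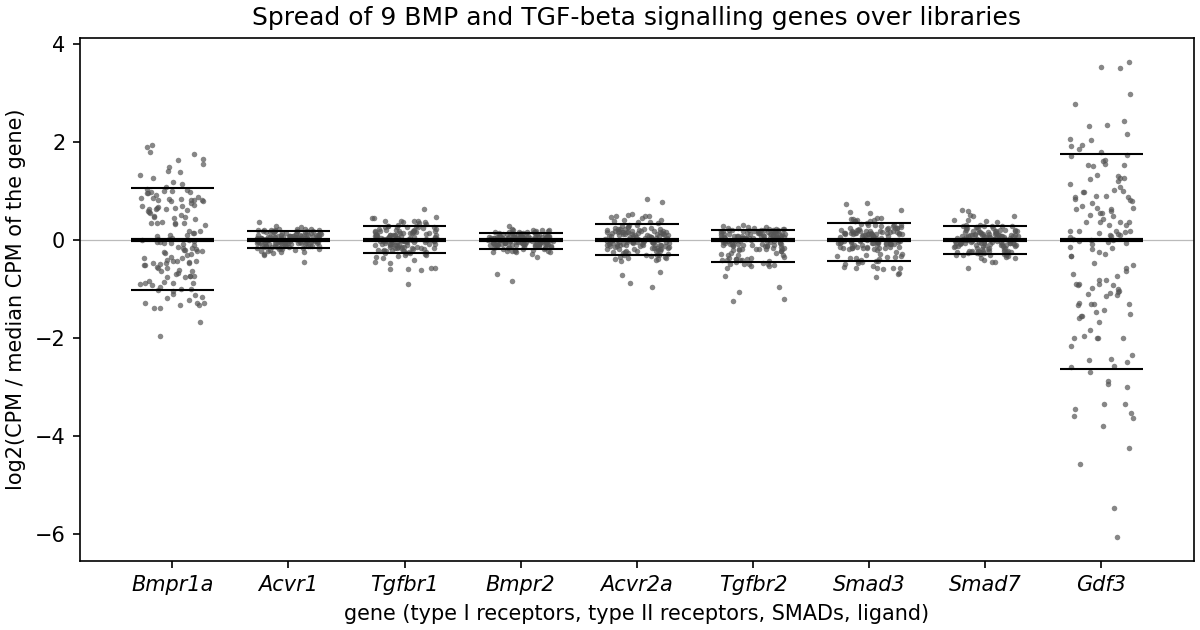
Level of each gene in each of the 146 libraries, as log2 of the CPM over the median CPM of that gene; each point is a library, the thick line the median and the thin lines the 10th and 90th percentiles. Gdf3 and Bmpr1a spread over several log2 units, with a 90th over 10th percentile ratio of 20.9 and 4.27, whereas the other 7 genes stay near their medians.

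Bmpr1a and Gdf3 were lower in macrophages of mice labelled male. Bmpr1a had a lowest, median and highest level of 1.07, 6.46 and 16.1 CPM in the female libraries and 1.30, 2.71 and 8.32 CPM in the male libraries. The groups overlapped, but 17 of 86 female libraries lay above every male library and 1 of 60 male libraries above the female median. The means were 6.61 ± 3.19 CPM (SD, n = 86) and 3.05 ± 1.31 CPM (SD, n = 60), and with plate in the model the male level was lower by a log2 difference of -1.10 ± 0.11 (SE), which is 2.14-fold (95% interval 1.83 to 2.50; edgeR's quasi-likelihood test, Benjamini-Hochberg adjusted p = 5.48e-14). Male levels were lower on each of the 7 plates, by -1.97 to -0.71 on the log2 scale.

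Gdf3 had a lowest, median and highest level of 0.0813, 7.43 and 67.4 CPM in the female libraries and 0.227, 2.50 and 18.7 CPM in the male libraries. Here 14 female libraries lay above every male library, and 10 of 60 male libraries above the female median. The means were 11.3 ± 12.999 CPM (SD, n = 86) and 4.26 ± 4.27 CPM (SD, n = 60), a male minus female log2 difference of -1.28 ± 0.26 (SE) or 2.43-fold (95% interval 1.70 to 3.46; edgeR, adjusted p = 0.000553). Plate by plate the male mean was lower on 7 of 7 plates, from -3.38 on plate 1, with 4 female and 2 male libraries, to -0.40 on plate 10.

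The 6 libraries that go against their labels carried levels between 1.07 and 6.28 CPM of Bmpr1a. Those labelled female held 1.07, 1.80, 5.80 and 2.10 CPM (replicates 5, 82, 85 and 86), and the lowest of the other 82 female libraries held 2.08 CPM. Those labelled male held 1.70 and 6.28 CPM (replicates 57 and 59). Of Gdf3 the 4 labelled female held 4.31, 2.90, 2.75 and 0.0813 CPM and the 2 labelled male 5.29 and 10.7 CPM, in the same order. Without these 6 the log2 difference was -1.16 ± 0.11 (SE, adjusted p = 1.50e-16) for Bmpr1a and -1.40 ± 0.26 (SE, adjusted p = 8.58e-05) for Gdf3 by edgeR, and both differences were a little larger without them.

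**Figure D2:**
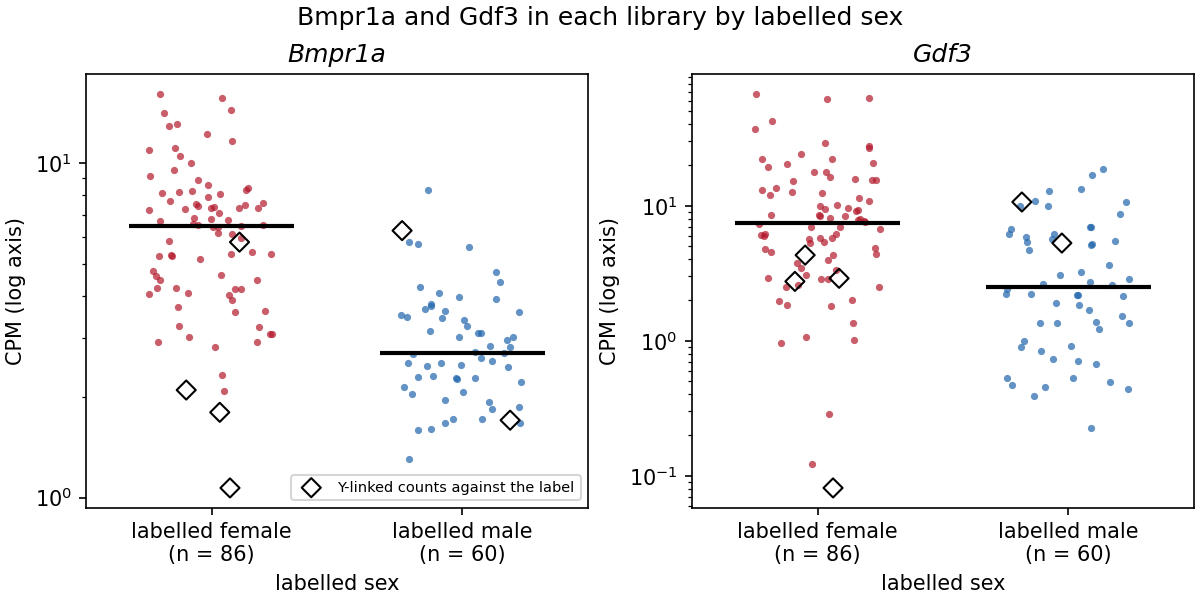
Bmpr1a (left) and Gdf3 (right) in each library by labelled sex, in CPM on a log axis; bars are medians and open diamonds mark the 6 libraries whose Y-linked counts go against the label. The female medians of 6.46 and 7.43 CPM stand above the male medians of 2.71 and 2.50 CPM, with overlap between the groups.

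Both genes were thus past the threshold of adjusted p under 0.05 for sex and lower in males, 2 of the 9, where 2.84% of the 12060 genes tested were lower in males and 5.02% differed in either direction. None of the 9 was higher in males by edgeR, DESeq2 or limma voom, nor at an unadjusted p under 0.05 by edgeR. Over all genes tested 2.17% were higher after adjustment in edgeR, and 1227 of 12060 at an unadjusted p under 0.05. A count of 0 among 9 genes is near these shares. The median log2 difference was 0.01 over the 9 and 0.00 over all genes tested. For the other 7 the edgeR adjusted p lay between 0.314 (Smad3) and 0.899 (Acvr2a) and the female over male ratio between 0.945 and 1.01. The 95% intervals of these 7 ratios together span 0.889 to 1.06, so that a difference of the size seen for Bmpr1a or Gdf3 lies outside each of them.

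The stromal markers also differed by sex in edgeR: 3 of their 6 tested genes were lower in males and 0 higher, with 5 and 0 at an unadjusted p under 0.05, where 1185 of the 12060 genes tested were lower and 1227 higher, 20% in all. Of the 9 tested granulocyte markers 1 was lower and 0 higher (unadjusted 4 and 0). Of the 8 macrophage markers 0 were lower and 1 higher (unadjusted 1 and 2), and the macrophage sum was not used as a covariate. With the stromal sum as a covariate the log2 difference was -1.06 ± 0.12 (SE) for Bmpr1a and -1.37 ± 0.27 for Gdf3, and with the granulocyte sum it was -1.12 ± 0.12 and -1.40 ± 0.27, all past the threshold in edgeR. Replacing plate by collection date gave -1.05 ± 0.13 and -1.33 ± 0.30. In edgeR's sex-by-plate test, which asks whether the sex difference differs between plates, 0 of the 9 genes passed, where 0.0415% of genes tested did. Of the 9 only Acvr1 had an unadjusted p under 0.05, at 0.0211, and by limma voom 0 of the 9 passed as well.

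The rest of the pathway was read from a list of 94 further genes, of which 93 were in the count table and 55 passed the filter. By labelled sex 3 of the 55 were past the threshold in edgeR, all lower in males. Of the 12060 genes tested 5.02% differed in either direction and 2.84% were lower in males. Among the 55 the count was 3 lower and 0 higher by DESeq2, 0 and 0 by limma voom, and 3 lower and 2 higher by edgeR without the 6 libraries. Fstl1, a secreted glycoprotein related to follistatin, differed by -0.88 ± 0.28 (SE, adjusted p = 0.0443) at means of 1.01 CPM in female and 0.527 CPM in male libraries, and Tgif2, a SMAD corepressor, by -0.54 ± 0.15 (adjusted p = 0.0189) at 0.288 and 0.202 CPM. With the stromal sum as covariate, neither stayed past the threshold in edgeR: Tgif2 was at -0.41 (adjusted p = 0.101) and Fstl1 turned to 0.37 (adjusted p = 0.220). Of the 19 alternatives run Fstl1 stayed past the threshold in the same direction in 3 and Tgif2 in 12. Tgif2 is uncertain, since 75.7% of its 50-base stretches also occur in another annotated gene.

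By role, 0 of 4 tested ligands, 0 of 8 receptors and coreceptors, 0 of 6 SMADs, 1 of 14 intracellular regulators, 1 of 12 extracellular regulators and 1 of 11 targets were lower in males, and 0 were higher in edgeR. At an unadjusted p under 0.05, 9 of the 55 were lower and 3 higher, where 1185 of the 12060 genes tested were lower and 1227 higher. In CPM, without regard to length, the ligand with the highest mean was Tgfb1, which signals through Tgfbr1 and Tgfbr2, at 244 ± 24.4 CPM (SD, n = 146), ahead of the stress-induced Gdf15 at 18.8 ± 10.9 CPM and Tgfb3 at 5.03 ± 4.42 CPM. The ligands that did not pass the filter each had a mean of at most 0.135 CPM. Among the targets Id2 stood at 867 ± 134 CPM and Tgfbi at 469 ± 111 CPM, and among the SMADs Smad4, the common partner, at 69.98 ± 6.03 CPM and Smad6 at 54.6 ± 12.1 CPM.

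Neither plate nor collection date was past the threshold for Bmpr1a, Gdf3 or Tgfbr2 in edgeR. For Tgfbr2 the edgeR adjusted p was 0.0541 for plate and 0.123 for date. Across plates 4 of 9 were past the threshold in edgeR with sex in the model, a smaller share than the 74.8% of all genes tested: Smad3 (adjusted p = 6.36e-05), Tgfbr1 (0.00217), Bmpr2 (0.00596) and Smad7 (0.0492). Smad7 lay close to the threshold and was not past it without plate 1 (edgeR adjusted p = 0.0550) or without the filter on low counts (0.0585). Smad3 had a median of 9.38 CPM on plate 8 (6.11 to 13.2, n = 23) and 12.2 CPM on plate 2 (7.48 to 17.4, n = 24). Tgfbr1 had a median of 286 CPM on plate 10 (171 to 354, n = 24) and 345 CPM on plate 4 (290.2 to 442, n = 24). These plates overlap in both genes, the difference in medians being smaller than the range within a plate.

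Across dates 6 of 9 were past the threshold, against 87.6% of all genes tested: Tgfbr1 (edgeR adjusted p = 1.04e-08), Smad7 (1.17e-07), Acvr1 (1.62e-07), Smad3 (8.24e-06), Acvr2a (1.02e-05) and Bmpr2 (0.0170). Date alone took up 41.6% of the variance of log2 CPM of Tgfbr1, 38.8% of Acvr1, 34.8% of Smad7, 29.4% of Acvr2a, 29.3% of Smad3 and 15.1% of Bmpr2 (adjusted for the number of dates), beside a median of 25.4% over all genes tested. For Tgfbr2 and Gdf3 it took up 6.57% and 6.92%, and for Bmpr1a -0.227%, a value below 0 arising where the dates take up no more than their number alone would. Sex took up 37.4% for Bmpr1a and 14.2% for Gdf3 and at most 1.42% for the other 7.

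Among the 16 dates with 5 or more libraries, Smad7 had its lowest median on the date labelled 2011-10-03, at 30.1 CPM (30.1 to 37.8, n = 5), and its highest on 26/05/2011, at 48.2 CPM (32.8 to 54.2, n = 6). Acvr2a ran from a median of 9.44 CPM on 28/10/2010 (9.02 to 11.3, n = 5) to 15.6 CPM on 22/07/2010 (14.0 to 21.6, n = 5), and these dates did not overlap. Tgfbr1 ran from 278 CPM on 16/09/2010 (259.5 to 386, n = 14) to 386 CPM on 28/10/2010 (323 to 434, n = 5), and its dates at the ends overlapped, as did those of Smad7. The dates at the ends were picked for their medians, so that the ranges describe them and test nothing.

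Of the 28 dates 10 were split over more than 1 plate, which lets each factor be fitted beside the other. With date in the model none of the 4 genes stayed past the threshold for plate (edgeR adjusted p = 0.123 for Tgfbr1, 0.515 for Bmpr2, 0.357 for Smad3 and 0.154 for Smad7), where 11.0% of genes tested did. With plate in the model 5 of the 6 stayed past the threshold for date, where 69.2% of genes did, and Bmpr2 was at 0.196.

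**Figure D3:**
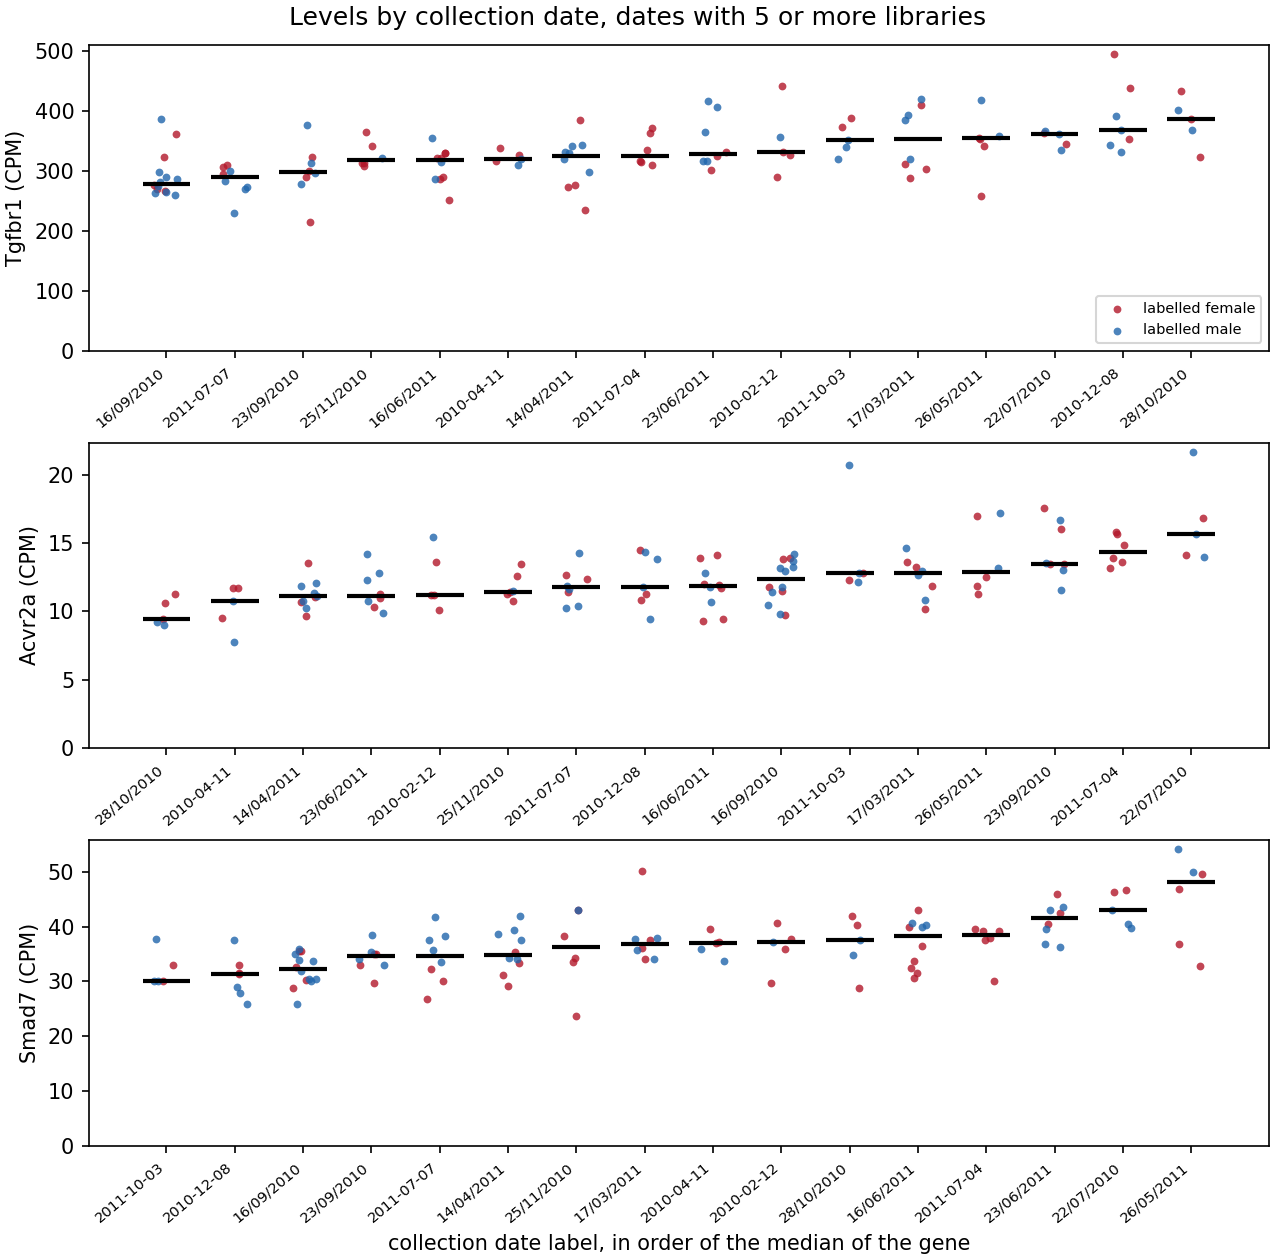
CPM of Tgfbr1, Acvr2a and Smad7 in each library by collection date label, for the 16 dates with 5 or more libraries, ordered by the median of each gene (black bars); red points are libraries labelled female and blue points male. The order of dates differs between the genes, with 28/10/2010 highest for Tgfbr1 and lowest for Acvr2a.

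Pairs of the 9 genes were compared over the 146 mice after plate and labelled sex had been removed from the log2 CPM. Of the 36 pairs 26 had a positive Spearman's rho, the mean rho was 0.0764 and the median 0.0567. By rho 6 pairs were past the threshold after adjustment over the 36, and all 6 were positive. They linked 4 of the genes to each other: Tgfbr1, Bmpr2, Acvr1 and Smad7. The share of pairs that pass among other genes tested was not computed.

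The strongest pair was Tgfbr1 with Bmpr2, a TGF-beta type I and a BMP type II receptor, at rho = 0.428 (two-sided permutation p = 2.00e-05, adjusted p = 0.000240) and r = 0.439 (p = 1e-05, the smallest that 100000 permutations can give, adjusted p = 9.00e-05), with r = 0.419 without the 2 libraries farthest from the Tgfbr1 median. Within the 6 plates of 22 or more libraries its rho ran from -0.578 on plate 8 to 0.601, positive on 5 of 6. Plate 8 thus went against the others, and the cause was not tested. Over all plates, without the 6 libraries that go against their labels, rho was 0.471 (permutation adjusted p = 0.000180) and 6 of the 36 pairs passed. Acvr1 with Tgfbr1 followed at rho = 0.384 (permutation p = 1e-05, adjusted p = 0.000240) and r = 0.420 (adjusted p = 9.00e-05; 0.422 without the 2 farthest), 0.0613 to 0.643 within plates and positive on 6 of 6. Acvr1 with Bmpr2 had rho = 0.364 (permutation p = 2.00e-05, adjusted p = 0.000240) and r = 0.377 (adjusted p = 9.00e-05; 0.311 without the 2 farthest), 0.143 to 0.430 within plates, also positive on 6 of 6.

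Smad7 varied with the same 3 receptors, less strongly. The values were rho = 0.336 and r = 0.365 with Acvr1 (permutation adjusted p = 0.000540 and 9.00e-05), rho = 0.261 and r = 0.264 with Tgfbr1 (0.0107 and 0.00799), and rho = 0.224 and r = 0.185 with Bmpr2 (0.0403 and 0.0849), where r did not pass. Without the 2 farthest libraries r was 0.381, 0.258 and 0.2499 in that order. Within plates these rho values were positive on 4, 5 and 4 of the 6 plates in that order. With date in place of plate the 3 pairs with Smad7 had rho = 0.103, 0.0296 and 0.201, none past the threshold, and Acvr1 with Tgfbr1 had 0.206 (permutation adjusted p = 0.0654). The permutations exchanged all mice without regard to date, and their p-values thus take no account of mice that share a date.

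Tgfbr1 with Tgfbr2, the subunits of the TGF-beta receptor, had rho = 0.114 and r = 0.144 (permutation adjusted p = 0.328 and 0.211), and Bmpr1a with Bmpr2 rho = 0.0516 and r = 0.0157 (adjusted p = 0.669 and 0.881), neither past the threshold. Tgfbr1 with Smad3 was past the threshold by r = 0.219 (permutation adjusted p = 0.0408) but not by rho = 0.175 (0.127), and so was Bmpr1a with Gdf3, the 2 genes lower in males, at r = 0.226 (0.0379) and rho = 0.187 (0.107). The lowest rho values were those of Bmpr2 with Gdf3 (-0.168), Smad3 with Gdf3 (-0.133) and Bmpr1a with Acvr2a (-0.130), with permutation adjusted p of 0.132, 0.262 and 0.269. Of the 10 negative pairs 0 passed by rho or by r in these permutation tests, and at an unadjusted p under 0.05 1 did by rho and 0 by r. With nothing removed from the log2 CPM, Smad3 with Gdf3 (rho = -0.224, permutation adjusted p = 0.0331) and Bmpr2 with Gdf3 (rho = -0.213, adjusted p = 0.0392) passed.

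**Figure D4:**
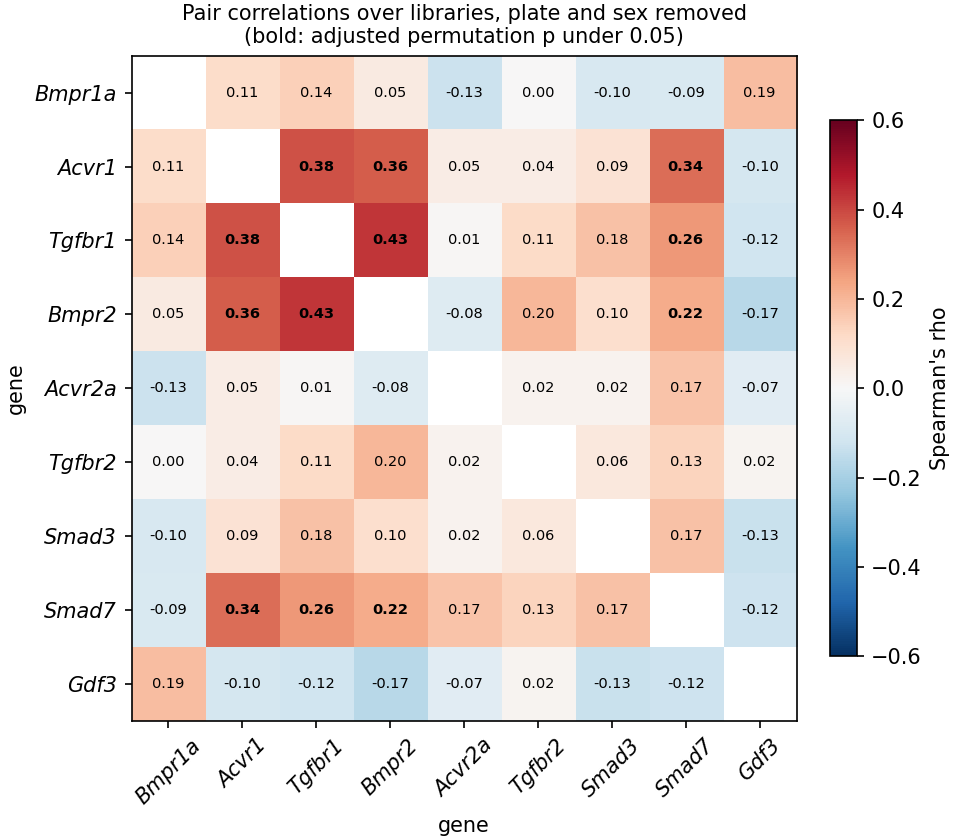
Spearman's rho for each pair of the 9 genes over 146 libraries, with plate and labelled sex removed; red is positive, blue negative, and bold values are past an adjusted permutation p of 0.05. The 6 bold pairs join Acvr1, Tgfbr1, Bmpr2 and Smad7, from 0.22 to 0.43.

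Promoter sequence was looked at because Tgfbr1 and Bmpr2 vary together, and because Bmpr1a stands apart by sex. The 250 bases before the RefSeq start (GRCm38.p6) were at hand for 7 of the 9 genes; the entries of Smad7 and Gdf3 are missing. On both strands 3 motifs were searched: GTCTAGAC, the palindromic SMAD element, GGCGCC, a GC-rich SMAD element that reads the same on both strands, and the consensus oestrogen response element, a palindrome with a spacer of any 3 bases. GGCGCC occurred in 3 of the 7, Tgfbr1, Bmpr1a and Bmpr2, starting 233, 198 and 105 bases before the start, and in 9.59% of the 32851 windows of the same length in the table. The other 2 motifs were in none of the 7, and in 0.167% and 0.0639% of all windows. These 7 windows had a GC content of 58.4% to 85.6%, above the median of 52.4% over all windows. For Bmpr1a and Bmpr2 the RefSeq start lies inside the gene as annotated by GENCODE, by 795 and 879 bases. The Tgfbr1 window (chr4:47352972-47353221, plus strand) and the 30 bases around the match before Bmpr1a (chr14:34502727-34502756, minus strand) and Bmpr2 (chr1:59764162-59764191, plus strand) are shown with the match in capitals.
Tgfbr1: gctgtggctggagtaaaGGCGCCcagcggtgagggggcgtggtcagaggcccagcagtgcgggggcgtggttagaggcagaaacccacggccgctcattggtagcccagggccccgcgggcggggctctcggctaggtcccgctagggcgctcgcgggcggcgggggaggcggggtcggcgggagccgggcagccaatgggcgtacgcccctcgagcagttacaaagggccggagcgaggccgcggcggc
Bmpr1a: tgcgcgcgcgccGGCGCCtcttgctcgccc
Bmpr2: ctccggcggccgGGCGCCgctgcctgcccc
The match describes the letters of these windows and shows no binding.

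Each gene was then set against all 12060 genes tested, to name the 3 with the highest rho and, for all but Tgfbr1, the 1 with the lowest over the 146 mice, as a description with no test. Smad7 had as its nearest gene Smad6, the other inhibitory SMAD, at rho = 0.682, followed by Eaf1 (0.630), an elongation factor cofactor, and Inf2 (0.613), a formin that shapes actin, with the histone chaperone Nasp at the other end (-0.627). Smad6 stayed nearest of all genes when date was removed in place of plate, at 0.586, and within plates the rho ran from 0.399 to 0.815.

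Smad6 and Smad7 were the pair of pathway genes with the highest rho here, out of 495 relations between the 9 genes and the 55 others. Its r was 0.689, its permutation p 1e-05 by both measures and its adjusted p 0.000118 by rho and 9.71e-05 by r, and r was 0.679 without the 2 libraries farthest from the Smad7 median. With the first 5 principal components of all genes removed as well, rho was 0.447 (permutation p = 1e-05), whereas Tgfbr1 with Bmpr2 fell to 0.0477 (adjusted p = 0.833) and 1 of the 36 pairs among the 9 passed in place of 6, none of those 6 being that pair. The first component alone held 20.5% of the variance of all genes tested.

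**Figure D5:**
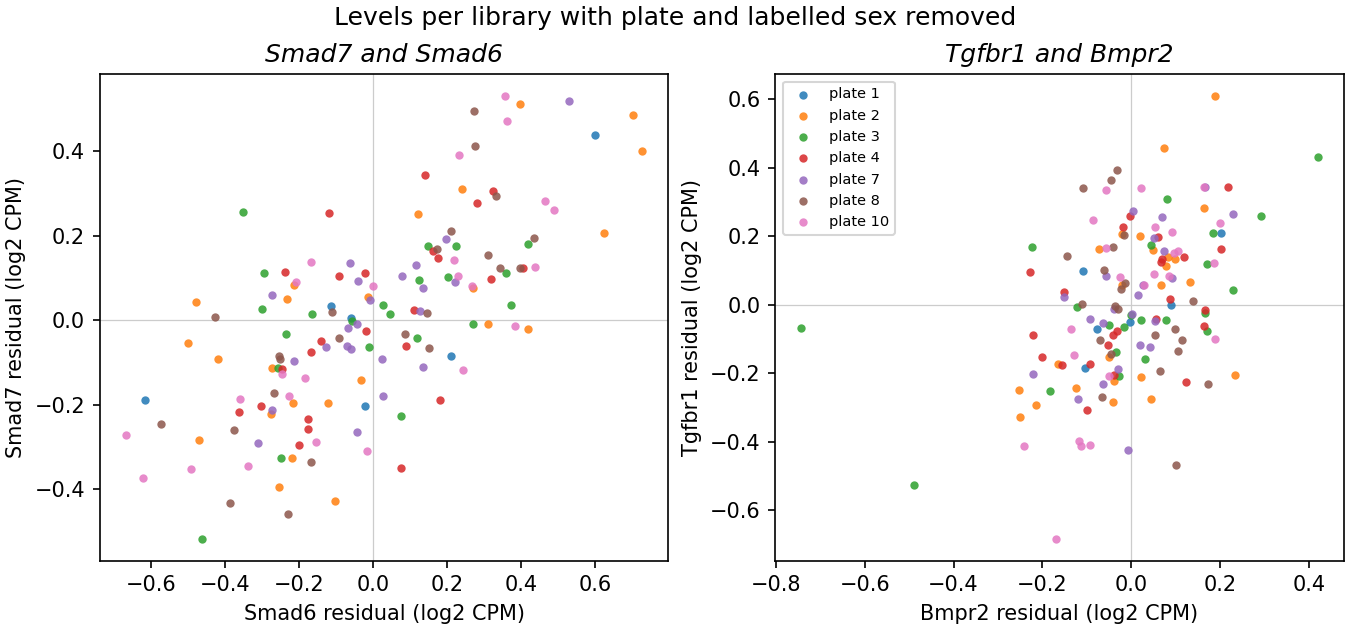
Smad7 against Smad6 (left) and Tgfbr1 against Bmpr2 (right), each point a library coloured by plate, as log2 CPM with plate and labelled sex removed. The left cloud runs upward, at rho = 0.682, and the right cloud is looser, at 0.428, with 2 libraries of plate 3 far to the left in Bmpr2.

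Of the type I receptors, Tgfbr1 was nearest to Tbc1d12 (rho = 0.720), Dnajb14 (0.719) and Vps54 (0.691), which encode a Rab GTPase-activating protein, a chaperone of the endoplasmic reticulum and a subunit of a Golgi tethering complex. Acvr1 was nearest to the chromatin remodeller Chd9 (0.606), to Cpt1a (0.602), which brings fatty acids into mitochondria, and to Abhd2 (0.569), with Mid1ip1 lowest at -0.623. Bmpr1a was nearest to Igsf3 (0.487), Tmeff1 (0.434) and the scavenger receptor Colec12 (0.433), with Cd7 lowest at -0.408.

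Among the type II receptors Acvr2a had the closest neighbours of the 9, Lemd3 at 0.770, Mbtd1 at 0.735 and the RNA helicase Ddx5 at 0.724, with Ap3d1 lowest at -0.751. Lemd3 encodes an inner nuclear membrane protein known to bind receptor-regulated SMADs. Bmpr2 was nearest to Uprt (0.526), Mrtfb (0.521), a coactivator of serum response factor, and Nf1 (0.512), with Naa10 lowest at -0.491. Tgfbr2 was nearest to Cyth1 (0.464), the nucleotide receptor P2ry6 (0.399) and Xylt2 (0.391), with Tomm70a lowest at -0.377. The number of genes with a rho beyond 0.5 in either direction was 994 for Acvr2a, 180 for Tgfbr1, 136 for Smad7, 39 for Acvr1, 6 for Bmpr2 and 0 for Bmpr1a, Tgfbr2, Smad3 and Gdf3.

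Smad3 was nearest to Tmem121b (0.411), which had a low mean of 0.486 CPM, the transglutaminase Tgm2 (0.374) and Traf5 (0.370), with Serpinb9b lowest at -0.429. Gdf3 was nearest to Ccnd1 (0.437), the cyclin of the G1 phase, Slc22a21 (0.413) and Jazf1 (0.411), with Atp6v1e1, a subunit of the vacuolar proton pump, lowest at -0.436. For Mid1ip1, Naa10, Ddx5, Ccnd1 and Slc22a21 between 20.03% and 24.1% of 50-base stretches also occur in another annotated gene, which leaves their counts uncertain. Of the 27 nearest genes 22 stayed among the 50 highest of their gene with date removed, and 25 with the deposited variance-stabilised values, from which the other 2 are absent.

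Within the pathway list 154 of the 495 relations passed by rho, 108 positive and 46 negative, spread unevenly over the 9 genes. The counts were 32 of 55 for Acvr2a (22 positive, 10 negative), 24 for Smad7 (22 and 2), 22 for Tgfbr1 (13 and 9), 20 for Bmpr1a (7 and 13), 18 for Acvr1 (17 and 1), 14 for Bmpr2 (13 and 1), 12 for Gdf3 (2 and 10), 8 for Smad3 (8 and 0) and 4 for Tgfbr2 (4 and 0). How many relations pass between the 9 genes and genes outside the pathway was not computed. These counts are thus not shown to be particular to the pathway. As for the pairs, the permutations of the 495 relations exchanged all mice without regard to date. Their p-values take no account of mice that share a date. The pathway genes named next, other than Smad6, were chosen after their values were seen.

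Smad7 varied with further genes that act on the signal. Its rho was 0.564 with Runx1, a transcription factor that works with SMADs (r = 0.545, 0.584 without the 2 farthest libraries), 0.487 with Smurf1 (r = 0.484, 0.506) and 0.478 with Smurf2 (r = 0.475, 0.520), the ubiquitin ligases that Smad7 brings to the receptors, and 0.469 with the BMP target Id2 (r = 0.463, 0.527). All 4 had a permutation p of 1e-05 and an adjusted p of 0.000118 by rho and 9.71e-05 by r, and the sign was the same on 6 of 6 plates, or 5 of 6 for Id2. Smurf2 was also the closest pathway gene of Acvr1 (rho = 0.507, r = 0.568, 0.535 without the 2 farthest) and of Bmpr2 (rho = 0.443, r = 0.415, 0.444), and the most opposed one of Gdf3 (rho = -0.421, r = -0.404, -0.444; permutation adjusted p = 0.000198 by rho). The rho of Smurf2 kept its sign on 6 of 6 plates with each of these 4 genes.

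Tgfbr1 was closest to Skil, a corepressor of SMADs that TGF-beta induces (rho = 0.592, r = 0.595), to Map3k7, the kinase TAK1 of the SMAD-independent branch (0.568 and 0.613), and to Itgav, the integrin chain that releases latent TGF-beta (0.564 and 0.579). Its lowest value was with Fkbp1a, which binds type I receptors (rho = -0.382, r = -0.457). Acvr2a was closest to Ppm1a, a phosphatase of SMADs (0.612 and 0.643), Thbs1, an activator of latent TGF-beta (0.574 and 0.590), and Smad4 (0.574 and 0.649), and lowest with the receptor Acvr1b (-0.541 and -0.558) and the coreceptor Eng (-0.478 and -0.487). The permutation adjusted p was 9.71e-05 by r for each of these 9 relations, and by rho 0.000118, or 0.000198 for Fkbp1a. Without the 2 farthest libraries r was 0.557, 0.563, 0.531 and -0.439 for the 4 relations of Tgfbr1 and 0.667, 0.581, 0.629, -0.513 and -0.435 for the 5 of Acvr2a. The sign was the same on 6 of 6 plates for each but Thbs1, at 5 of 6.

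Bmpr1a was closest to Zfyve9, the anchor that brings SMADs to receptors (rho = 0.430, r = 0.432), and lowest with Klf10 (-0.352 and -0.273). Smad3 was closest to Nrros, which holds latent TGF-beta at the surface of myeloid cells (0.322 and 0.335), and Tgfbr2 to Ski (0.359 and 0.323). The signs of these 4 relations were the same on 6 of 6 plates, and all 4 passed by rho (permutation adjusted p = 0.000118, 0.000280, 0.000696 and 0.000360) and by r (9.71e-05, 0.00454, 0.000471 and 0.000874). Without the 2 farthest libraries r was 0.395, -0.248, 0.283 and 0.297.

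Levels of other cell types' markers moved with part of the 9 genes. Of 99 relations with 10 marker sums and with depth 21 passed by rho, none of them with depth and none of Tgfbr2. These permutations, too, exchanged mice without regard to date. Tgfbr1 had rho = -0.343 with the granulocyte sum (r = -0.320, permutation adjusted p = 0.000990 and 0.00198), and -0.284 with the stromal sum (r = -0.239, 0.00665 and 0.0207), and both were negative on 6 of 6 plates. Acvr2a had rho = 0.508 with the dendritic sum (r = 0.574) and 0.403 with the lymphoid sum (r = 0.422), each at a permutation p of 1e-05 and an adjusted p of 0.000495. The dendritic sum ran from 15.4 to 109 CPM in female and 14.7 to 126 CPM in male libraries, and the lymphoid sum was at most 9.99 CPM. Most of the dendritic sum was Itgax, at a mean of 28.7 CPM, with Flt3 next at 2.57 CPM. Most of the lymphoid sum was Cd79b, at a mean of 2.40 CPM, with Nkg7 next at 0.628 CPM. Within plates the rho of Acvr2a ran from -0.225 to 0.727 with the dendritic sum and from -0.342 to 0.768 with the lymphoid sum. Smad7 had rho = 0.336 with the dendritic sum (r = 0.336, permutation adjusted p = 0.000990 and 0.00165), and 0.167 to 0.631 within plates.

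The macrophage sum itself moved with the 3 receptors that were correlated with each other. Most of this sum was Lyz2, at a mean of 10001.5 CPM, with Cd68 next at 1748.5 CPM. The rho of the sum was 0.282 with Tgfbr1 (r = 0.291, permutation adjusted p = 0.00683 and 0.00458), positive on 4 of 6 plates. It was 0.227 with Acvr1 (r = 0.230, permutation adjusted p = 0.0363 and 0.0254) and 0.212 with Bmpr2 (r = 0.236, 0.0494 and 0.0220), each positive on 5 of 6 plates. The lymphoid sum had negative rho values with Tgfbr1 (-0.320, permutation adjusted p = 0.00158), and with the 2 genes lower in males, Bmpr1a (-0.268, 0.0101) and Gdf3 (-0.253, 0.0170). Bmpr1a also had rho = -0.244 with the dendritic sum (permutation adjusted p = 0.0218), and Gdf3 -0.222 with the granulocyte sum (0.0401). With the stromal and granulocyte sums removed beside plate and sex, the mean rho over the 36 pairs was 0.0608 and 6 pairs passed, Bmpr2 with Smad7 no longer among them (rho = 0.198, permutation adjusted p = 0.0713), and Smad7 with Smad6 had rho = 0.694. The macrophage sum was not removed from the pairs, and its part in them was not tested, nor was the part of the other cell types in these relations.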

How the data were processed

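RNA of 146 bone marrow-derived macrophage cultures, 1 per mouse, was sequenced. Per the submitters' processing notes, FastQC, TopHat2 2.0.11, HTSeq 0.6.1 and DESeq2 were used with GRCm38/mm10; the annotation release and the strand setting used for counting are not given in the sources used here. The authors deposited a table of raw counts per Ensembl gene (22721 genes) and a table of variance-stabilised values, which are on a log2-like scale (10893 genes); as deposited, the log2-scale values served only as an alternative. Symbols came from GENCODE M21 (21899 identifiers matched), gene lengths are the union of annotated exons, and promoter windows came from RefSeq. Depth was 14483441 to 120926429 counts, so that counting error was small beside the spread between mice for each of the 9 genes.

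Counts were filtered with filterByExpr (12060 genes), scaled by TMM and tested with edgeR 4.0.16 (quasi-likelihood, R 4.3.3) for labelled sex with plate as a covariate, for plate and for date with sex as a covariate, and for sex by plate, all with Benjamini-Hochberg adjustment over all genes tested and a threshold of 0.05. Alternatives used DESeq2 1.42.0 and limma 3.58.1. Correlations were computed with numpy 2.4.6 on log2 CPM (prior count 2) after removing plate and sex, with 100000 two-sided permutations over all libraries. Their p-values were adjusted with scipy 1.17.1 over 36 pairs, 495 pathway relations or 99 marker relations. Within-plate values use the 6 plates with 22 or more libraries. The models were checked on simulated counts with known changes. A gene was called uncertain where 20% or more of its 50-base stretches occur in another annotated gene. All 9 genes are named, with the 3 highest and the 1 lowest correlated gene of each; some genes that these rules name are not reported here. The genes, lists and tests were chosen with earlier results of these data known. Replicate numbers follow accession order and are names only.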

Additional observations from a re-analysis of the deposited data

Results flagged for a closer look

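The groups were libraries of 1 labelled sex on 1 plate or date, and 23 of them held 4 to 10 libraries. Of 207 gene-by-group sets 20 held a library set apart from the rest. The rule marks about 1 in 20 groups by chance where values are independent and normally distributed. Plate and date groups share libraries, and Gdf3 and Bmpr1a spread unevenly, so that the count of 20 is not shown to exceed chance. Each value below is a CPM, with the range of the other libraries of the group.

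Gdf3 accounted for 5 of the 20, each a high library. Female 28 held 42.8 on plate 2 (1.06 to 17.7), male 34 held 18.7 on plate 4 (0.452 to 6.14), female 20 held 29.0 on 16/09/2010 (6.16 to 9.69), female 53 held 61.7 on 2010-02-12 (0.123 to 8.43) and male 25 held 10.0 on 23/09/2010 (0.674 to 2.18). Bmpr1a accounted for 4, also high. Female 73 held 8.13 on 14/04/2011 (4.09 to 4.47), male 36 held 5.82 on 17/03/2011 (2.96 to 3.39), male 14 held 5.61 on 2010-12-08 (1.68 to 1.96) and female 52 held 14.1 on 25/11/2010 (5.86 to 8.24).

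Among the other receptors, Acvr2a was high in male 37 on plate 4, at 20.7 (10.8 to 15.4). Tgfbr1 was high in male 20 on 16/09/2010, at 386 (259.5 to 297), and low in female 10 on 26/05/2011, at 257 (340.5 to 355). Acvr1 was high in male 39 on 17/03/2011, at 32.7 (30.9 to 31.1), and in male 57 on 2011-07-07, at 32.8 (27.5 to 29.0), and low in female 53 on 2010-02-12, at 27.3 (28.5 to 28.7). Bmpr2 was high in female 56 on the same date, at 63 (52.2 to 53.1).

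Female 70 on 2011-07-04 was low in both Tgfbr2, at 174 (365 to 418), and Smad7, at 30.1 (37.6 to 39.5). Smad3 was low in male 41 on 14/04/2011, at 7.16 (9.30 to 10.4), and in male 59 on 2011-07-07, at 6.11 (8.95 to 9.70). Male 57 and male 59 are among the libraries whose Y-linked counts go against the label.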

How the results depend on the processing

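The sex differences of Bmpr1a (-1.21 to -0.73 on the log2 scale, highest adjusted p 4.36e-10) and Gdf3 (-1.49 to -0.92, highest adjusted p 0.0147) kept direction and threshold under all 20 alternatives run. The number of genes differing by sex, 605, was 1011 by limma voom with date as a block, 948 with lane within plate, 926 without the 6 libraries against their labels, 976 without these and the male library lowest in Y-linked counts, 1381 with the granulocyte sum, and 356, 230 and 298 without plates 3, 4 and 7. Genes differing between plates, 9021, were 1332 with date in the model, and those with a sex-by-plate difference, 5, were 1 without the 6 libraries and 1 by limma voom. Differences near 0 that were not past the threshold changed sign: Acvr2a to -0.00628 and -0.0295 without plates 1 and 4, Acvr1 to 0.0114 without plate 2, Bmpr2 to -0.00175 without plate 3 and -0.00132 with the granulocyte sum, Tgfbr1 to -0.00415 without plate 7 and to -0.0215 and -0.0241 with the stromal and granulocyte sums; Fstl1 went to 0.37 with the stromal sum. Under limma voom Gdf3 passed for date (adjusted p = 0.0115) and Tgfbr2 for plate (0.0341). The cause was not tested.

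The mean pair rho, 0.0764, was 0.225 within plate 7. With the first 5 principal components removed rho was -0.0794 for Acvr1 with Tgfbr1, -0.00795 for Acvr1 with Bmpr2, -0.0427 for Bmpr2 with Smad7 and 0.0937 for Bmpr1a with Acvr2a, which was 0.0849 with the first alone removed. Single plates reversed Bmpr1a with Acvr2a (0.0243 on plate 3, 0.105 on plate 7), Acvr1 with Smad7 (-0.145 on plate 3, -0.166 on plate 7), Tgfbr1 with Smad7 (-0.0148 on plate 7), Bmpr2 with Smad7 (-0.154 on plate 7, -0.200 on plate 8), Bmpr2 with Gdf3 (0.194 on plate 4, 0.235 on plate 7), Smad3 with Gdf3 (0.943 on plate 1, which has 6 libraries, and 0.134 on plate 8) and Tgfbr1 with Bmpr2 (-0.578 on plate 8). The cause was not tested. Smad7 with Smad6 stayed positive in each, at 0.399 to 0.815. No paired analysis was possible because the replicate numbers are only the order of accession and pair no mice. Depth limits Bmpr1a and Gdf3, with as few as 31 and 5 counts in a library.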
